A study of Mus musculus with 12 samples.

Results

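The 9 transcribed loci followed here carried many read counts in one of the study's cell lines and few in the other. They are 9 of the 40039 merged loci in the deposited models, and they were named by identifier with no numeric threshold: 5 have their counts in the Notch1-/- line and 4 in the WT line. The difference in counts between the lines chose them, so that difference is described here and not tested. The working description of these loci as unannotated and present in one line only held in part. Of the 9, 6 consist only of transcripts that the authors' models class as intergenic, 1 is antisense to a gene, and 2 are known transcripts. Of the 9, 1 locus had at most 3 counts summed over the 6 libraries of the other line.

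The libraries are poly(A) RNA from mouse embryonic stem cells of strain C57BL/6J, sequenced in 4 groups of 3. The groups are Notch1-/- cells as embryoid bodies at day 6, Notch1-/- cells at day 0, WT cells as embryoid bodies at day 6, and WT cells at day 0. Day 0 cells of both genotypes were grown with the factor LIF at 1000 U/ml, either on a layer of embryonic fibroblasts (feeders) or on gelatinized plates, and the labels do not say which for any library. Embryoid bodies were aggregates of 1000 cells in hanging drops, set up for cardiac differentiation. The labels do not give the deleted part of Notch1, nor whether each line is a single clone. The series text speaks of biological replicates, but nothing says they were separate cultures, so p-values measure the spread between these libraries, which may be technical.

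Much of a mammalian genome outside known genes is transcribed at low levels into long noncoding RNAs, which are often expressed in few cell types and vary between individuals, strains and cell lines. Assemblers such as Cufflinks report such RNAs as new loci, and a locus with a single exon and no strand has no splice junction to show its direction. Imprinted domains are another setting in which a locus can be silent in one cell line: genes there are read from the copy inherited from one parent only, and imprints can be lost in cultured stem cells.

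Totals ran from 100637179 to 134662426 counts per library, and 23991 loci passed the filter on low counts, all 9 described here among them. Levels are CPM, read counts relative to the library size scaled by TMM, given as mean ± SD with n = 3. Notch1, the targeted gene, averaged 5.55 ± 1.08 CPM in Notch1-/- embryoid bodies and 33.3 ± 4.04 CPM in WT embryoid bodies, and 4.09 ± 0.44 CPM in Notch1-/- cells and 40.1 ± 19.2 CPM in WT cells at day 0. It was lower in Notch1-/- libraries at day 6 (log2 fold change -2.58, SE 0.30, adjusted p = 7.29e-05) and at day 0 (-3.29, SE 0.30, adjusted p = 4.32e-05, edgeR's quasi-likelihood test). Feeder fibroblast markers, of which 20 of 22 were measured, summed to 135 to 198 CPM in Notch1-/- and 1177 to 1614 CPM in WT embryoid bodies, and to 569 to 2349 CPM in Notch1-/- and 1043 to 3721 CPM in WT cells at day 0. No marker of that list was at 0 counts except 1 in a single WT day 6 library. Pluripotency markers, 7 of 10 measured, summed to 653 to 1048 CPM in Notch1-/- and 422 to 587 CPM in WT embryoid bodies. At day 0 they summed to 1657 to 2954 CPM in Notch1-/- and 2054 to 2781 CPM in WT cells. Pou5f1, Sox2 and Dppa5a were not measured. Embryoid body mesoderm markers, 5 of 8 measured, summed to 366, 331 and 107 CPM in Notch1-/- and 806, 711 and 498 CPM in WT embryoid bodies, so that Notch1-/- day 6 library 3 was the lowest, and to 7.10 to 21.4 CPM in day 0 libraries of both lines. The part of this difference in the results at day 6 was not tested. The 4 Y-linked genes measured summed to 0.171 to 0.234 CPM in Notch1-/- embryoid bodies and 218 to 250 CPM in WT embryoid bodies, and to 8.0 to 38.6 CPM in Notch1-/- and 206 to 281 CPM in WT cells at day 0. In such bulk RNA, fewer cells of a type and less RNA per cell cannot be told apart.

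Of the 9, 2 could be tied to annotated genes by the lengths of their exons and introns. XLOC_005055 begins with an exon of 149 bases, an intron of 4633 bases and an exon of 458 bases, which are the first 3 elements of C130046K22Rik, an annotated long noncoding RNA of chromosome 11. Its first exon overlaps the start of Gosr2, a vesicle transport gene of the opposite strand. The annotated promoter is shown because it is the start of this locus, which lies beside that of Gosr2. It is the RefSeq sequence of build GRCm38.p6, chr11:103697474-103697773, plus strand, from 250 bases before the start to 50 after it, with CpG dinucleotides in capitals.

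C130046K22Rik promoter: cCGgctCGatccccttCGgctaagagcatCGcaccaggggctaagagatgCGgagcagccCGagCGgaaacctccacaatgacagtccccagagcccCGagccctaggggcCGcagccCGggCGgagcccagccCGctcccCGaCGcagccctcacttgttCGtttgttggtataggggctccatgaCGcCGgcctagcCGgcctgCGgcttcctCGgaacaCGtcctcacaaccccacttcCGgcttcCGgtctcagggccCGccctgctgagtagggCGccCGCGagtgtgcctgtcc

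It holds 27 CpGs in 300 bases with 68.3% G and C. Of 32851 promoter windows of this length, 15.5% hold as many or more, and the median window holds 7. The CpG count describes the letters only.

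The other known locus, XLOC_007825, lies in the imprinted Dlk1-Dio3 domain of chromosome 12 and is read from the minus strand. An intron of 4780 bases and an exon of 62 bases match Rtl1, a retrotransposon-derived gene of the placenta that is expressed from the paternal copy, and the next exon has 6295 bases where the annotated one has 6296. In the deposited models 74.9% of its exon length is shared with other loci, above all with a plus-strand locus that merges the maternally expressed noncoding RNAs Meg3 and Rian. Its bounds also enclose 3 small plus-strand loci whose lengths of 62, 96 and 120 bases and whose spacing match the precursors of Mir136, Mir341 and Mir1188. Mature microRNAs of this strand can pair perfectly with the RNA of the opposite strand that contains their complement, and for that reason their sequences are shown. They are RefSeq sequences (GRCm38.p6, chromosome 12, plus strand), with the seed, bases 2 to 8, in capitals.

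mmu-miR-136-5p: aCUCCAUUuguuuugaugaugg
mmu-miR-136-3p: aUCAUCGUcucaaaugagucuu
mmu-miR-341-5p: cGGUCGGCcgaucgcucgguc
mmu-miR-341-3p: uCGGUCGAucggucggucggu
mmu-miR-1188-5p: uGGUGUGAgguugggccagga
mmu-miR-1188-3p: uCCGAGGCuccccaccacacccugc

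No 2 of these 6 mature forms share a seed. The 3 precursor loci had 0 counts in all 12 libraries, and 100% of their length was shared with exons of other loci on either strand. Long poly(A) libraries do not capture mature microRNAs, so these zeros say nothing of their levels.

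The 4 loci with counts in WT cells come next. XLOC_009067 (chr13:19608914-19620273, mm9, minus strand, 2 exons) is intergenic. It had 1, 0 and 0 counts in Notch1-/- embryoid bodies, against 3659, 4021 and 4429 in WT embryoid bodies. At day 0 it had 1, 1 and 0 counts in Notch1-/- cells, against 6307, 9223 and 14511 in WT cells. No Notch1-/- library had more than 1 count, and no WT library had fewer than 3659, on both days. Per length it was the most abundant of the WT loci, at 3.00 CPM per kb of exon in WT embryoid bodies and 7.25 CPM per kb in WT cells at day 0.

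XLOC_001233 (chr1:122181921-122204658, minus strand) is an intergenic locus of 11 transcript models with up to 8 exons, the most spliced of the 9. Its counts were 4, 3 and 1 in Notch1-/- embryoid bodies and 126, 145 and 227 in WT embryoid bodies. In day 0 cells they were 0, 1 and 5 in Notch1-/- and 1075, 1345 and 1956 in WT. The groups did not overlap on either day, but the gap was narrower at day 6, when the WT level was low.

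XLOC_028585 (chr5:67888285-67894750, single exon, no strand) lies within the bounds of the noncoding gene C330024D21Rik without sharing exons with it. All 3 Notch1-/- embryoid body libraries had 0 counts, and the WT embryoid bodies had 558, 467 and 430. At day 0 the Notch1-/- cells had 4, 4 and 13 counts and the WT cells 537, 601 and 351. A few counts were thus present in every undifferentiated Notch1-/- library and in none after differentiation.

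XLOC_007825, the locus matching Rtl1 (chr12:110781230-110850327), had 4, 5 and 6 counts in Notch1-/- embryoid bodies and 4385, 4294 and 4303 in WT embryoid bodies. Day 0 cells had 124, 142 and 272 counts in Notch1-/- and 2149, 2699 and 1788 in WT. The Notch1-/- level was 0.109% of the WT level in CPM at day 6 and 9.67% at day 0, the highest such share of the 9 at either day. Its deposited FPKM is listed at 0 in library 3 of both WT groups, where counts were as high as in the other libraries. Because most of its exons are shared and the strand setting of the counting is not given, reads of this locus and of Meg3 and Rian cannot be told apart.

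The 5 loci with counts in Notch1-/- cells follow. XLOC_005250 (chr11:5585369-5601196, minus strand, 3 exons) is antisense to Ankrd36, an ankyrin repeat gene, and shares 17.5% of its exon length with other loci. It had 1794, 1849 and 2100 counts in Notch1-/- embryoid bodies and 37, 48 and 41 in WT embryoid bodies. Day 0 cells had 7082, 5589 and 7231 counts in Notch1-/- and 164, 141 and 163 in WT. The WT level was about the same share of the Notch1-/- level at both days, 2.30% at day 6 and 1.97% at day 0.

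XLOC_001616 (chr1:7167582-7169836, single exon) is an intergenic locus close to the end of Pcmtd1, a gene of a methyltransferase-like protein. Its counts were 6028, 7330 and 7368 in Notch1-/- embryoid bodies and 11, 15 and 17 in WT embryoid bodies. In day 0 cells they were 3195, 3827 and 2808 in Notch1-/- and 110, 58 and 171 in WT. The 2 deposited measures of this locus disagree. Its FPKM was 33.0, 34.7 and 34.6 in Notch1-/- and 12.1, 12.2 and 11.5 in WT embryoid bodies, and 20.0, 18.1 and 18.5 in Notch1-/- and 14.1, 12.8 and 18.4 in WT cells at day 0. In FPKM the WT level was therefore 35.0% of the Notch1-/- level at day 6 and 80.0% at day 0, where counts in CPM gave 0.218% and 2.93%. At day 0 the FPKM ranges of the lines overlap. In FPKM this locus is not present in one line only, and the cause of the disagreement was not tested.

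XLOC_023909 (chr3:93146008-93158622, single exon) had 293, 595 and 411 counts in Notch1-/- and 5, 1 and 3 in WT embryoid bodies. At day 0 there were 586, 620 and 1232 counts in Notch1-/- cells and 3, 9 and 6 in WT cells. It lies inside an unnamed minus-strand locus, XLOC_023291.

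XLOC_023935 (chr3:100113783-100114256) is a single exon of 474 bases, the shortest of the 9. It had 425, 603 and 531 counts in Notch1-/- and 2, 6 and 6 in WT embryoid bodies, and 962, 2074 and 453 counts in Notch1-/- and 22, 11 and 13 in WT cells at day 0. Notch1-/- day 0 libraries differed more from each other here, relative to their mean, than at any other of the 5 loci (10.8 ± 6.93 CPM).

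XLOC_005055, the locus matching C130046K22Rik (chr11:103559038-103586887, plus strand, 3 exons), had 829, 908 and 875 counts in Notch1-/- and 14, 13 and 13 in WT embryoid bodies. Day 0 cells had 395, 508 and 566 counts in Notch1-/- and 49, 42 and 55 in WT. The WT level was 1.60% of the Notch1-/- level at day 6 and 8.40% at day 0.

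**Figure D1:**
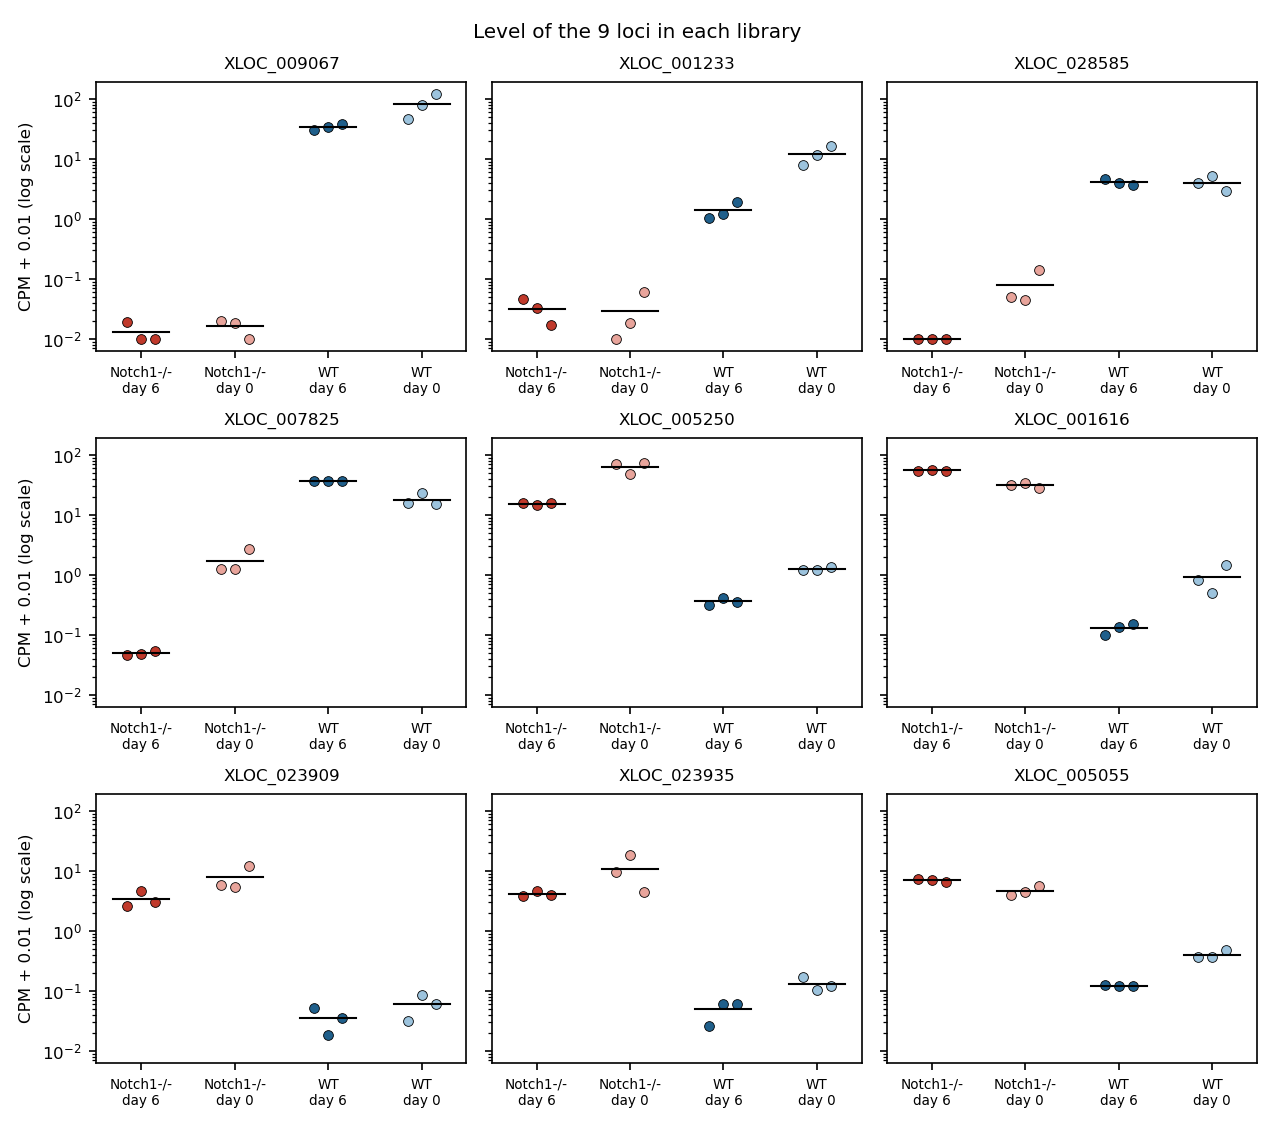
Level of the 9 loci in each library, in CPM with 0.01 added on a log axis; points are libraries and bars are means of 3. In every panel the 6 libraries of one line lie apart from the 6 of the other, and only XLOC_009067 stays at 0 or 1 counts in all 6 libraries of the other line.

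Over all loci, 22 met the stricter pattern of at most 3 counts summed over the WT libraries with at least 10 in each Notch1-/- library, and 14 met it the other way round. None of the 22 is among the 9 loci, and XLOC_009067 is among the 14. Of these, 18 and 11 consist only of intergenic transcripts. With at least 100 counts required in each library, 0 loci remained for Notch1-/- and 2 for WT, namely XLOC_009067 and the Y-linked gene Uba1y, which encodes a ubiquitin-activating enzyme. The other 8 loci had more than 3 counts in the line in which they are low. By FPKM the low line reached a larger share at day 6 than by counts at XLOC_001233 as well, 10.4% against 1.59% in CPM. The same held at XLOC_007825, 17.1% against 0.109% in CPM, and at XLOC_023935, 5.35% against 0.950%. Gaps were smaller at XLOC_005250, 3.82% against 2.30%, and at XLOC_023909, 1.05% against 0.730%. The share by FPKM was the smaller at XLOC_009067 and XLOC_005055, and both were 0 at XLOC_028585.

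**Figure D2:**
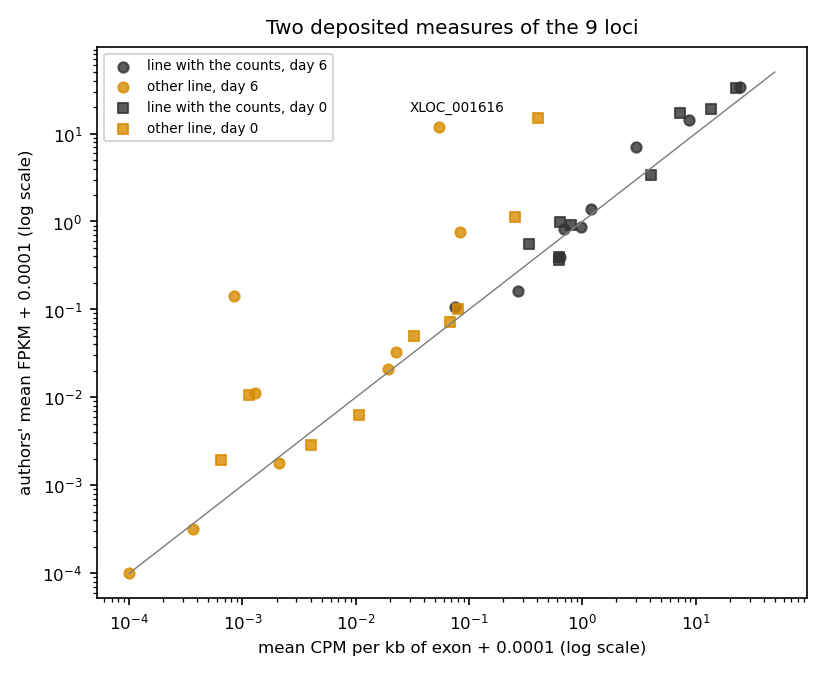
Mean CPM per kb of exon against the authors' mean FPKM for each locus, line and day, both with 0.0001 added on log axes; the line marks equal values. XLOC_001616 in the WT line lies far above the line, with FPKM of 11.9 at day 6 and 15.1 at day 0.

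The next comparison asked what differentiation did to these loci in the line that has them, a contrast that played no part in choosing them. Of the 9, 7 changed between day 6 and day 0: 5 were lower and 2 were higher at day 6 (edgeR's quasi-likelihood test, Benjamini-Hochberg adjustment over all loci). In Notch1-/- cells 4 of 5 were called, 3 lower and 1 higher, where 35.7% of all tested loci were called, 18.6% lower and 17.1% higher. In WT cells 3 of 4 were called, 2 lower and 1 higher, where 43.0% of all tested loci were called, 24.6% lower and 18.4% higher. The median log2 change was -1.19 for the 5 loci in Notch1-/- cells, against -0.02 over all loci, and -0.62 for the 4 in WT cells, against -0.12 over all loci. With 9 loci picked by name these shares describe them only.

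The spliced intergenic locus XLOC_001233 fell most, to 1.40 ± 0.47 CPM in WT embryoid bodies, against 11.9 ± 4.34 CPM in WT cells at day 0 (log2 fold change -3.09, SE 0.48, adjusted p = 0.00034, edgeR). The highest day 6 library, at 1.94 CPM, lay below the lowest day 0 library, at 7.87 CPM. XLOC_009067 fell to 34.1 ± 3.79 CPM in WT embryoid bodies, against 82.4 ± 38.3 CPM at day 0 (-1.27, SE 0.30, adjusted p = 0.00497, edgeR). The day 0 libraries of XLOC_009067 spread widely, from 46.1 to 122 CPM, and all 3 lay above the day 6 libraries.

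XLOC_005250, antisense to Ankrd36, fell to 15.4 ± 0.88 CPM in Notch1-/- embryoid bodies, against 64.0 ± 12.9 CPM in Notch1-/- cells at day 0 (-2.05, SE 0.18, adjusted p = 1.34e-05, edgeR). The groups did not overlap. These 3 falls were called under every alternative tried for them, 21 each besides the fit given here.

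Falls of the single-exon loci XLOC_023909 and XLOC_023935 were less firm. XLOC_023909 averaged 3.45 ± 1.06 CPM in Notch1-/- embryoid bodies and 7.87 ± 3.88 CPM in Notch1-/- cells at day 0 (-1.19, SE 0.41, adjusted p = 0.0396, edgeR). Leaving out Notch1-/- day 0 library 3 gave -0.71 (adjusted p = 0.219), and the call was also lost without Notch1-/- day 6 library 1 (0.138), Notch1-/- day 6 library 3 (0.110) or WT day 6 library 3 (0.0555). XLOC_023935 averaged 4.16 ± 0.48 CPM in Notch1-/- embryoid bodies and 10.8 ± 6.93 CPM at day 0 (-1.37, SE 0.42, adjusted p = 0.0234, edgeR). Without Notch1-/- day 0 library 2 its change was -0.76 (adjusted p = 0.155), and the call was also lost without Notch1-/- day 6 library 1 (0.0780) or library 3 (0.0674), and in FPKM (0.0755 at a pseudocount of 0.1, limma). Day 0 library 3 of XLOC_023935, at 4.54 CPM, lay within the range of the day 6 libraries, 3.83 to 4.71 CPM.

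The locus matching Rtl1, XLOC_007825, was higher at day 6, at 36.5 ± 0.27 CPM in WT embryoid bodies, against 17.9 ± 4.40 CPM in WT cells at day 0 (1.02, SE 0.28, adjusted p = 0.0108, edgeR). The day 6 libraries were nearly equal and all above the highest day 0 library, at 23.0 CPM. In FPKM, with a listed 0 in each group, the change was not called (adjusted p = 0.811 at a pseudocount of 0.1, limma).

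XLOC_001616 was higher in Notch1-/- embryoid bodies, at 55.4 ± 1.56 CPM, against 31.2 ± 2.78 CPM in Notch1-/- cells at day 0 (0.83, SE 0.28, adjusted p = 0.0342, edgeR). The groups did not overlap, yet the call was lost when any one of the 6 Notch1-/- libraries was left out, with changes of 0.76 to 0.88 and adjusted p of 0.0549 to 0.103, and under upper quartile scaling (adjusted p = 0.0638). In the deposited FPKM the direction was the same, at 34.1 ± 0.94 in Notch1-/- embryoid bodies and 18.9 ± 1.03 at day 0.

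The other 2 loci were not called. XLOC_005055, matching C130046K22Rik, averaged 7.02 ± 0.48 CPM in Notch1-/- embryoid bodies and 4.69 ± 0.90 CPM at day 0 (0.58, SE 0.23, adjusted p = 0.0612, edgeR). It was called without Notch1-/- day 0 library 3 (0.74, adjusted p = 0.0426), without WT day 0 library 1 (0.0475) or without WT day 0 library 2 (0.0462). It was also called by DESeq2 (adjusted p = 0.0211) and in FPKM (adjusted p = 0.0297 at a pseudocount of 0.1, limma). XLOC_028585 averaged 4.08 ± 0.49 CPM in WT embryoid bodies and 4.00 ± 1.08 CPM in WT cells at day 0 (0.03, SE 0.38, adjusted p = 0.962, edgeR), and the 2 groups overlapped.

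**Figure D3:**
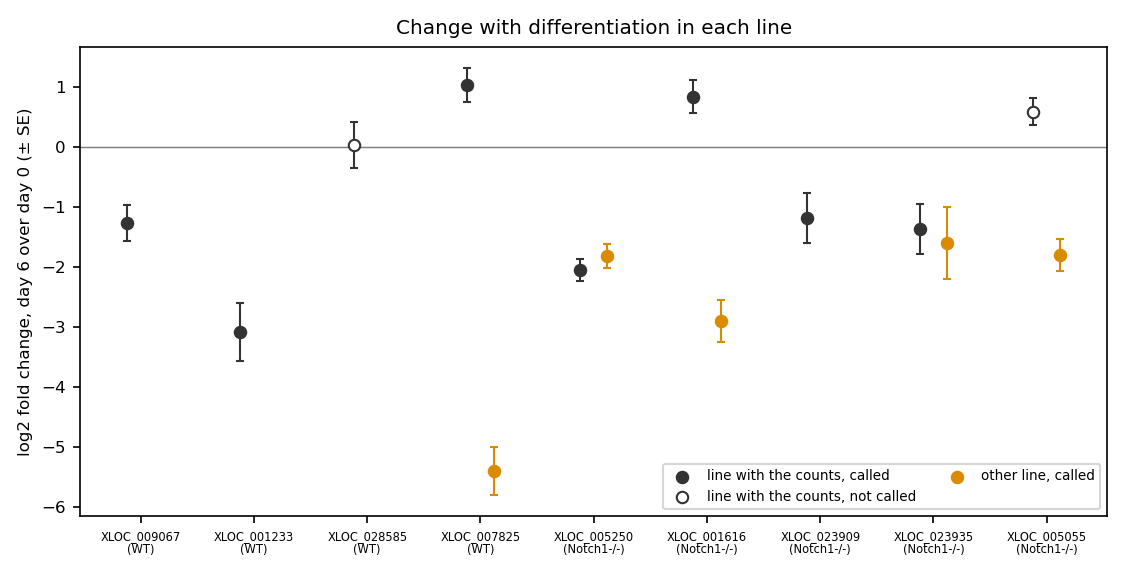
Log2 fold change of each locus, day 6 over day 0, with its SE, in the line with the counts (named under each locus) and in the other line; filled points were called. In the line with the counts 5 loci lie below 0 and called; the other line is drawn for the 5 loci that pass the filter on its counts alone, all below 0 and called.

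The low counts in the other line were examined as well. Of the 9 loci, 5 pass the filter on low counts with the libraries of that line alone, and values of the change are given for these 5 only. The other 4, XLOC_009067, XLOC_001233, XLOC_028585 and XLOC_023909, entered the fit through the line in which they are high. Of these, XLOC_028585 summed to 0 counts at day 6 and 21 at day 0 in Notch1-/- cells. XLOC_007825 fell to 0.0399 ± 0.0044 CPM in Notch1-/- embryoid bodies, against 1.74 ± 0.86 CPM in Notch1-/- cells at day 0 (-5.40, SE 0.40, adjusted p = 6.2e-06, edgeR). In the deposited FPKM the direction turned and was not called, at 0.142 ± 0.127 in Notch1-/- embryoid bodies and 0.0502 ± 0.0224 in Notch1-/- cells at day 0 (0.57, adjusted p = 0.724 at a pseudocount of 0.1, limma).

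In WT cells XLOC_001616 fell to 0.121 ± 0.028 CPM in embryoid bodies, against 0.914 ± 0.484 CPM at day 0 (-2.91, SE 0.35, adjusted p = 5.89e-05, edgeR). In FPKM, the measure that disagrees with counts in these libraries, it averaged 11.9 ± 0.35 in WT embryoid bodies and 15.1 ± 2.96 in WT cells at day 0 and was not called (-0.32, adjusted p = 0.0573 at a pseudocount of 0.1, limma). XLOC_005055 fell to 0.112 ± 0.003 CPM in WT embryoid bodies, against 0.394 ± 0.061 CPM in WT cells at day 0 (-1.80, SE 0.27, adjusted p = 0.000228, edgeR). In Notch1-/- cells XLOC_001616 was higher at day 6, and XLOC_005055 was not called. XLOC_005250 fell in WT cells as in Notch1-/- cells (-1.83, SE 0.20, adjusted p = 2.61e-05, edgeR). XLOC_023935 rested on 14 counts at day 6 and 46 at day 0 in WT cells (-1.61, SE 0.60, adjusted p = 0.0464, edgeR). Its call was lost in 10 of 12 fits that each left out 1 library, with adjusted p of 0.0154 to 0.156 over the 12.

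Feeder markers were set beside these low counts. In WT their summed CPM overlapped between days, at 1177 to 1614 in embryoid bodies and 1043 to 3721 at day 0. Over the list, log2 CPM averaged 0.92 to 1.57 in Notch1-/- embryoid bodies and 4.28, 5.36 and 6.04 in Notch1-/- day 0 libraries 1, 2 and 3, and 2.79 to 3.00 in WT embryoid bodies and 5.54, 4.73 and 6.69 in WT day 0 libraries. Among the 3 day 0 libraries of the other line, 4 of the 9 loci had CPM in the same order as the feeder list, namely XLOC_001233, XLOC_007825, XLOC_001616 and XLOC_005055. XLOC_001616, for instance, had 0.805, 0.494 and 1.44 CPM in WT day 0 libraries 1, 2 and 3. XLOC_001233 rested on 0, 1 and 5 counts in Notch1-/- day 0 libraries 1, 2 and 3. The rest of the 9 did not have that order. An order of 3 libraries is easily matched by accident, and the share of all tested loci with that order was not counted. Nothing is drawn from the number of loci that had it. The part of feeder RNA in these counts was not tested.

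The last comparison asked whether the difference between the lines was limited to each locus or extended to its surroundings. The nearest tested locus on each side was taken, 18 in all, none of them used in choosing the 9. At day 6, 11 of the 18 differed between Notch1-/- and WT, where 28.0% of all tested loci were called, and at day 0, 13 of 18 differed, where 9.36% were. With the replicate number as a block at day 0, 13 of the 18 were called, and 3360 of all tested loci against 2246 without the block. Without the block, 9 flanking loci at day 6 and 11 at day 0 were called in the direction of their neighbour among the 9. On both days 8 of 18 were called in that direction, where 4.23% of all tested loci were called in one and the same direction on both days. Most of these 8 were at or near 0 CPM in the line in which they are low: XLOC_028584, XLOC_028586, XLOC_007242, XLOC_000013, XLOC_023908 and XLOC_023910. They passed the filter only through the other line, so their calls were nearly fixed in advance. The share over all loci is no like comparison for them. Flanking loci also lie close to loci picked for a difference and several may belong to the same transcription unit, so the shares are a description.

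The surroundings fell into 3 kinds. Around XLOC_028585, XLOC_007825 and XLOC_023909 both flanking loci were called in the same direction on both days. XLOC_001616 and XLOC_023935 had 1 such flanking locus each, and XLOC_009067, XLOC_001233, XLOC_005250 and XLOC_005055 had none. Flanking distances were 93 and 428 bases at XLOC_028585, 3266 and 42523 at XLOC_007825 and 5779 and 163 at XLOC_023909. They were 117075 and 63303 at XLOC_009067, 14261 and 166456 at XLOC_001233, 142892 and 12223 at XLOC_005250 and 25827 and 1789 at XLOC_005055. Overlapping loci, such as XLOC_005977 inside XLOC_005055, were not taken as flanks. The kinds thus do not measure how far a difference extends.

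Beside XLOC_028585, the intergenic loci XLOC_028584, 93 bases below, and XLOC_028586, 428 bases above, had the same pattern. XLOC_028586 had 0 CPM in Notch1-/- and 2.36 ± 0.45 CPM in WT embryoid bodies (adjusted p = 0.00012, edgeR), and 0.0681 ± 0.0829 CPM in Notch1-/- and 2.31 ± 0.48 CPM in WT cells at day 0 (adjusted p = 0.0024, edgeR). XLOC_028584 had 0 CPM in all 6 Notch1-/- libraries, and 0.107 ± 0.013 CPM in WT embryoid bodies and 0.0915 ± 0.0177 CPM in WT cells at day 0. C330024D21Rik, whose bounds enclose all 3, averaged 0.322 ± 0.302 CPM in Notch1-/- and 53.9 ± 8.05 CPM in WT embryoid bodies (-7.37, SE 0.91, adjusted p = 0.00012, edgeR). At day 0 it averaged 7.90 ± 6.27 CPM in Notch1-/- and 49.6 ± 4.06 CPM in WT cells (-2.65, SE 0.71, adjusted p = 0.0363, edgeR). Within 100 kb of XLOC_028585, 10 of 13 tested loci were lower in Notch1-/- cells on both days, over 137 kb.

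Around XLOC_007825 the merged Meg3 and Rian locus, XLOC_007237, had the same direction. It averaged 1.99 ± 0.82 CPM in Notch1-/- and 1156 ± 46.9 CPM in WT embryoid bodies (-9.19, SE 0.61, adjusted p = 1.55e-06, edgeR), and 46.8 ± 30.8 CPM in Notch1-/- and 467 ± 62.2 CPM in WT cells at day 0 (-3.32, SE 0.46, adjusted p = 0.000933, edgeR). It shares 62.8% of its exon length with other loci. The long noncoding RNA gene Gm34081, 3266 bases below on the minus strand, averaged 0.425 ± 0.291 CPM in Notch1-/- and 1.76 ± 0.14 CPM in WT embryoid bodies (-2.06, SE 0.60, adjusted p = 0.0221, edgeR), and 0.0426 ± 0.0501 CPM in Notch1-/- and 5.33 ± 2.56 CPM in WT cells at day 0 (-6.96, SE 0.78, adjusted p = 0.000213, edgeR). Its call at day 6 was lost when Notch1-/- day 6 library 2 or 3 or any WT day 6 library was left out (highest adjusted p = 0.0736). On the other side a locus of 54 bases, XLOC_007242, had 0 CPM in Notch1-/- and 0.506 ± 0.060 CPM in WT embryoid bodies. XLOC_007242 lies within the bounds of the merged Meg3 and Rian locus, on the same strand. Its deposited FPKM averaged 0 in all 4 groups. In all, 6 of 9 tested loci within 100 kb were lower in Notch1-/- cells on both days, over 232 kb.

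Around XLOC_023909 the neighbours were also transcribed mainly in Notch1-/- cells. XLOC_023908 averaged 0.434 ± 0.158 CPM in Notch1-/- embryoid bodies and 0 in WT embryoid bodies (adjusted p = 0.000367, edgeR), and 0.629 ± 0.294 CPM in Notch1-/- and 0.0162 ± 0.0171 CPM in WT cells at day 0 (adjusted p = 0.00229, edgeR). XLOC_023910, 163 bases above, averaged 0.321 ± 0.130 CPM in Notch1-/- and 0.00567 ± 0.00491 CPM in WT embryoid bodies (5.59, SE 0.73, adjusted p = 0.000172, edgeR). The enclosing locus XLOC_023291 was 1.58 (SE 0.23) higher on the log2 scale in Notch1-/- embryoid bodies and 1.89 (SE 0.24) higher in Notch1-/- cells at day 0 (adjusted p = 0.000418 and 0.000456, edgeR). Its WT level, 12.7 ± 0.57 CPM at day 6 and 11.7 ± 2.61 CPM at day 0, was well above 0. Of 8 tested loci within 100 kb, 7 were higher in Notch1-/- cells on both days, over 141 kb.

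Elsewhere fewer flanking loci were called in the direction of their neighbour. Pcmtd1, 3872 bases from XLOC_001616, averaged 156 ± 12.2 CPM in Notch1-/- and 191 ± 14.5 CPM in WT embryoid bodies (-0.30, SE 0.25, adjusted p = 0.416, edgeR). Deposited FPKM of Pcmtd1 averaged 3.50 in Notch1-/- and 14.6 in WT embryoid bodies, and 8.53 in Notch1-/- and 18.9 in WT cells at day 0. At day 6 the difference was thus larger in FPKM than in counts, and the cause was not tested. At day 0 Pcmtd1 was lower in Notch1-/- cells, at 114 ± 33.3 CPM, against 243 ± 102 CPM in WT cells (-1.10, SE 0.26, adjusted p = 0.0193, edgeR), which is opposite to XLOC_001616; the call was lost without Notch1-/- day 0 library 2 or 3 or WT day 0 library 1 (highest adjusted p = 0.0882). The spliced intergenic locus XLOC_000013 on its other side had 0.245 ± 0.033 CPM in Notch1-/- embryoid bodies and 0.0483 ± 0.0125 CPM in Notch1-/- cells at day 0, with 0 CPM in all 6 WT libraries.

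XLOC_023935 had no tested locus within 100 kb. XLOC_023360, 157728 bases above it, averaged 9.32 ± 1.62 CPM in Notch1-/- and 3.17 ± 0.42 CPM in WT embryoid bodies (1.56, SE 0.29, adjusted p = 0.00173, edgeR), and 15.9 ± 3.60 CPM in Notch1-/- and 3.18 ± 1.18 CPM in WT cells at day 0 (2.32, SE 0.29, adjusted p = 0.000485, edgeR). Gdap2, on the other side, was called at day 0 only (0.62, SE 0.14, adjusted p = 0.0186, edgeR), and was not without Notch1-/- day 0 library 2 or 3 or WT day 0 library 3 (highest adjusted p = 0.0796).

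Ankrd36 and Gosr2, the named genes that overlap XLOC_005250 and XLOC_005055 on the opposite strand, were not called between the lines on either day. Ankrd36 averaged 0.0832 ± 0.0112 CPM in Notch1-/- and 0.0507 ± 0.0258 CPM in WT embryoid bodies (adjusted p = 0.425, edgeR), and 0.169 ± 0.123 CPM in Notch1-/- and 0.247 ± 0.105 CPM in WT cells at day 0 (adjusted p = 0.526, edgeR). Ankrd36 was thus low in both lines, and 34.8% of the exon length of Ankrd36 is shared with other loci. An unnamed plus-strand locus, XLOC_004308, also overlaps XLOC_005250 and shares 65.2% of its exon length with other loci. It averaged 3.38 ± 0.48 CPM in Notch1-/- and 2.99 ± 0.23 CPM in WT embryoid bodies (adjusted p = 0.651, edgeR). At day 0 it averaged 3.74 ± 0.95 CPM in Notch1-/- and 4.52 ± 1.04 CPM in WT cells (adjusted p = 0.515, edgeR). Gosr2 averaged 112 ± 4.31 CPM in Notch1-/- and 136 ± 8.69 CPM in WT embryoid bodies (-0.27, SE 0.17, adjusted p = 0.246, edgeR) and 112 ± 20.8 CPM in Notch1-/- and 99.6 ± 20.5 CPM in WT cells at day 0 (0.17, SE 0.17, adjusted p = 0.517, edgeR). XLOC_005977, a minus-strand single-exon locus inside an intron of XLOC_005055, had the same direction on both days, at 3.27 ± 0.51 CPM in Notch1-/- and 0.0643 ± 0.0286 CPM in WT embryoid bodies (5.64, SE 0.39, adjusted p = 2.42e-06, edgeR) and 1.09 ± 0.17 CPM in Notch1-/- and 0.130 ± 0.027 CPM in WT cells at day 0 (3.06, SE 0.35, adjusted p = 0.000228, edgeR).

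The flanking genes of the remaining loci gave mixed values. Steap3, a metalloreductase of iron uptake beside XLOC_001233, was higher in Notch1-/- embryoid bodies, at 11.0 ± 6.31 CPM against 2.90 ± 0.13 CPM in WT embryoid bodies (1.92, SE 0.44, adjusted p = 0.00681, edgeR), and lower in Notch1-/- cells at day 0, at 7.22 ± 1.05 CPM against 20.8 ± 11.3 CPM in WT cells (-1.53, SE 0.44, adjusted p = 0.0457, edgeR). The day 0 call of Steap3 was lost in 10 of 12 fits that each left out 1 library, every library except Notch1-/- day 6 library 3 and WT day 0 library 2, with adjusted p of 0.0042 to 0.152 over the 12. Marco, a scavenger receptor of macrophages on the other side, was higher in Notch1-/- cells at day 0, at 0.961 ± 0.840 CPM against 0.0190 ± 0.0132 CPM in WT cells (5.60, SE 1.44, adjusted p = 0.0306, edgeR). That call was lost without Notch1-/- day 0 library 2 or 3 or WT day 0 library 1 or 3 (highest adjusted p = 0.111). Neither gene thus moved with XLOC_001233 on both days.

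Epdr1, beside XLOC_009067, was lower in Notch1-/- cells at day 0, at 4.80 ± 1.08 CPM against 11.8 ± 5.39 CPM in WT cells (-1.30, SE 0.32, adjusted p = 0.0246, edgeR). Epdr1 was not called without Notch1-/- day 0 library 2 or WT day 0 library 1 or 3 (highest adjusted p = 0.0945). It was 63303 bases from the locus, and its own difference was far smaller than that of XLOC_009067. Urgcp, beside XLOC_005250, was lower in Notch1-/- embryoid bodies (-0.87, SE 0.20, adjusted p = 0.00664, edgeR), opposite to XLOC_005250. Wnt9b, a Wnt ligand 1789 bases above XLOC_005055, was higher in Notch1-/- embryoid bodies, at 16.8 ± 7.43 CPM against 4.55 ± 0.45 CPM in WT embryoid bodies (1.88, SE 0.51, adjusted p = 0.0166, edgeR), and was not called at day 0 (-1.50, SE 0.54, adjusted p = 0.101, edgeR). The day 6 call of Wnt9b was lost without Notch1-/- day 6 library 2 or WT day 6 library 1 or 2 (highest adjusted p = 0.0708). Of the remaining flanking loci, Ccdc117, XLOC_009665 and XLOC_006650 were called on neither day.

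**Figure D4:**
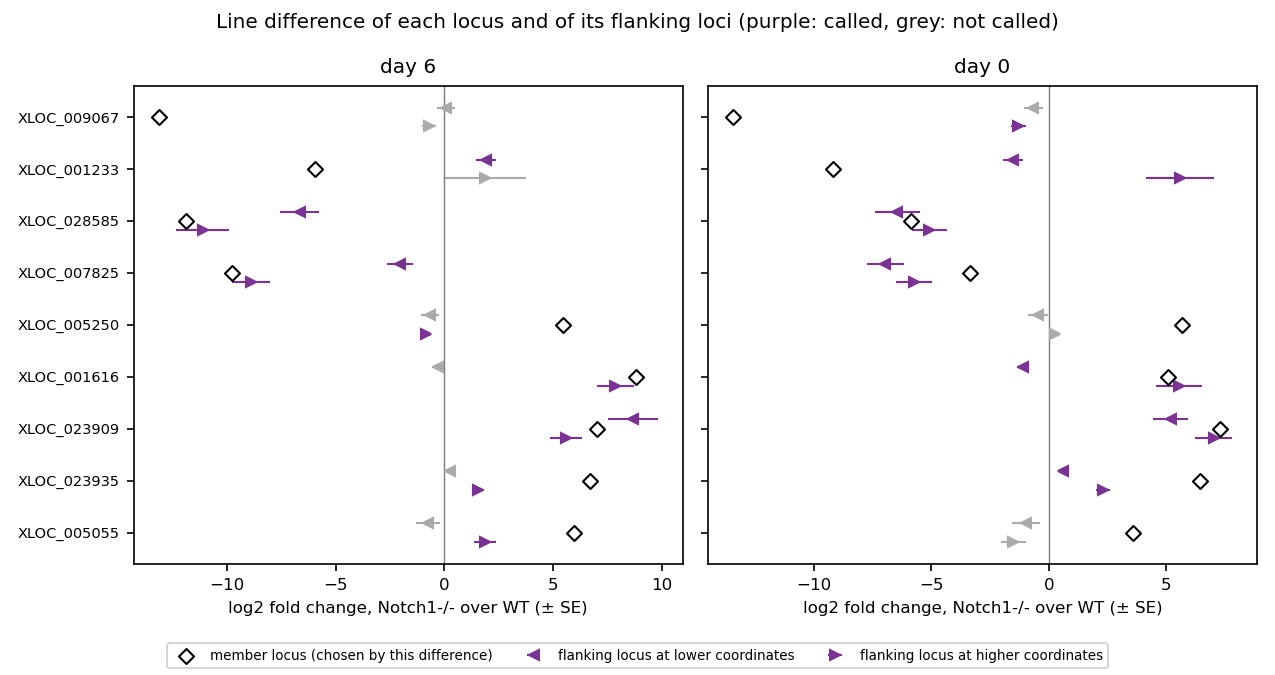
Log2 fold change of the 18 flanking loci, Notch1-/- over WT, with SE, at day 6 and day 0; diamonds show the loci chosen by this difference. Both flanking loci lie on the side of the diamond, and called, on both days for XLOC_028585, XLOC_007825 and XLOC_023909; values against groups at 0 counts depend on the fit's prior count.

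For each of the 9, the 3 other loci with the most similar profile were found, by Pearson's correlation of log2 CPM over the 12 libraries. These values describe likeness only, since the 2 lines stand apart and set most of each correlation. The profile most like XLOC_009067 was that of Uba1y on the Y chromosome (r = 0.997), which had 0 CPM in all Notch1-/- libraries, 2.70 ± 0.55 CPM in WT embryoid bodies and 3.57 ± 0.63 CPM in WT cells at day 0. Those most like XLOC_007825 were the Y-linked genes Eif2s3y (r = 0.992) and Uty (r = 0.991), followed by its overlapping Meg3 and Rian locus (r = 0.989). Eif2s3y, a translation factor subunit, averaged 0.0690 ± 0.0160 CPM in Notch1-/- and 130 ± 7.39 CPM in WT embryoid bodies, and 7.95 ± 5.47 CPM in Notch1-/- and 116 ± 15.9 CPM in WT cells at day 0. Like XLOC_007825 it had a residual level in Notch1-/- cells at day 0 that was nearly gone in embryoid bodies.

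Of the 3 profiles most like XLOC_028585, 2 came from chromosome 12 and not from its own chromosome 5. They were XLOC_007245 (r = 0.994) and XLOC_007243 (r = 0.990), which lie side by side above XLOC_007825, at chr12:110913919-110961879. The third was its neighbour XLOC_028586 (r = 0.988). XLOC_007245 averaged 0.00757 ± 0.00745 CPM in Notch1-/- and 3.40 ± 0.13 CPM in WT embryoid bodies, and 0.101 ± 0.095 CPM in Notch1-/- and 2.32 ± 0.78 CPM in WT cells at day 0.

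XLOC_001616 and XLOC_005055 shared their nearest profile, Klhdc4, a kelch-domain gene of chromosome 8 (r = 0.997 and 0.998). Klhdc4 averaged 2157 ± 11.1 CPM in Notch1-/- and 6.89 ± 0.30 CPM in WT embryoid bodies, and 1079 ± 105 CPM in Notch1-/- and 33.5 ± 15.1 CPM in WT cells at day 0. Its mean was above that at day 0 in Notch1-/- embryoid bodies and below it in WT embryoid bodies, and so were the means of both loci, of which XLOC_005055 was not called in Notch1-/- cells. For XLOC_001233 the nearest was the intergenic locus XLOC_026036 (r = 0.989), for XLOC_005250 the noncoding gene Gm33222 (r = 0.991), for XLOC_023909 the single-exon locus XLOC_020143 (r = 0.992) and for XLOC_023935 the intergenic single-exon locus XLOC_021646 (r = 0.993).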

How the data were processed

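The 9 loci, the lists and the tests were chosen with earlier results of these data known. Per the submitters' processing notes, the tools were HTSeq 0.5.4p3, Cufflinks 2.1.1, TopHat2 2.0.8 and DESeq, on genome build mm9. Their settings and the strand mode of counting are not stated there. The authors deposited whole-number read counts per merged locus, FPKM for the same loci (scaled by the authors for length and library size), and the merged transcript models, which give position, strand, exons and class. Counts of loci with shared exons are uncertain.

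Deposited counts of the 12 libraries were fitted together, each group with its own mean (edgeR 4.0.16 in R 4.3.3: TMM, default filter, robust quasi-likelihood test, Benjamini-Hochberg adjustment over 23991 loci, called under 0.05). The robust option was chosen after it was seen to give earlier counts of calls, and the fit without it was added. The standard error is the log2 fold change over the root of its F statistic. Alternatives used DESeq2 1.42.0 and limma 3.58.1 on log2(FPKM + 0.1) and log2(FPKM + 1). On simulated counts for Notch1-/- day 6 against day 0, with 23991 loci, 48% of 2-fold and 85% of 4-fold changes were recovered, with 5 false calls. The changes were planted in 100 loci for each fold, all with a mean above 1 CPM. Recovery at lower levels was not measured.

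Symbols were given to 15954 loci whose exon and intron lengths match 1 annotated gene of GENCODE vM21 on the same chromosome, with introns of at least 200 bases. No coordinates were converted. MicroRNA precursors were matched by length and spacing, with 1 match on the chromosome. Loci named are the 9, the nearest tested locus on each side, loci whose bounds overlap one, the 3 most similar profiles (log2 CPM, prior count 2) and Notch1. The variance between libraries of a group was 38.8 to 396.2 times that of counting alone (chi-square per degree of freedom), so none counted as a duplicate.

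Same-numbered libraries of the 2 lines deviated together at day 0 (correlations of 0.398, 0.275 and 0.165 for numbers 1, 2 and 3). The labels do not explain this pattern in the data. Values and calls between the lines at day 0 come from the fit without pairs unless the block is named. The fit with the replicate number as a block changed no call among flanking loci at day 0.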

Additional observations from a re-analysis of the deposited data

Results flagged for a closer look

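For 4 flanking loci the difference between Notch1-/- and WT was itself different at day 6 and day 0 (interaction term of edgeR's quasi-likelihood test, adjusted over all loci). For Steap3, beside XLOC_001233, the Notch1-/- over WT log2 difference was 1.92 at day 6 and -1.53 at day 0, a difference of 3.45 (SE 0.62, adjusted p = 0.00448, edgeR). For Gm34081, beside XLOC_007825, it was -2.06 at day 6 and -6.96 at day 0, a difference of 4.90 (SE 0.94, adjusted p = 0.00629, edgeR). For Wnt9b, beside XLOC_005055, it was 1.88 at day 6 and -1.50 at day 0, a difference of 3.38 (SE 0.75, adjusted p = 0.0126, edgeR). For Urgcp, beside XLOC_005250, it was -0.87 at day 6 and 0.29 at day 0, a difference of -1.16 (SE 0.28, adjusted p = 0.0202, edgeR). Gm34081 was lower in Notch1-/- on both days, while Steap3 had opposite signs, both called.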

How the results depend on the processing

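Of the alternatives tried for counts of calls, 131 stayed within 1.5 times the value given and 16 did not; for single loci, 906 kept direction and side of the threshold, 85 lost a call, 13 gained one, 4 reversed and 6 changed sign without a call on either side. The 6 were XLOC_028585 in WT cells (-0.15 to -0.07 with upper quartile scaling, without WT day 0 library 3 or without WT day 6 library 1) and, at day 6, Marco (-0.86) and XLOC_009665 (-0.04 and -0.03), each without 1 library. The 4 reversals, where a call was lost or gained, came with FPKM: XLOC_007825 in Notch1-/- cells changed by 0.57 and 0.12 (pseudocounts 0.1 and 1), and Ccdc117 at day 6 by 0.43 and 0.40; the cause was not tested. Without the robust option, chosen as an alternative after seeing the data, the counts were 7 of 9 loci in their own line, 11 flanking loci at day 6 and 13 at day 0. Between the lines at day 0, 3714 loci were called with DESeq2, against 2246 with edgeR. With FPKM + 1, 6 flanking loci were called at day 0. For the 5 loci that pass the filter in the line in which they are low, a fit of that line alone, added after seeing the data, kept all 5 calls (adjusted p of 0.000696 to 0.0392). The stricter on/off pattern was met by 14 Notch1-/- loci at limits of 10 and 30 counts, and by 0 Notch1-/- and 2 WT loci at 3 and 100.

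Leaving out 1 library at a time gave 1065 (without Notch1-/- day 0 library 2) to 5694 (without WT day 0 library 2) calls between the lines at day 0, and 4266 to 7793 at day 6. Flanking calls ranged from 8 to 14 at day 0, the lowest without Notch1-/- day 0 library 2, and from 9 to 12 at day 6. Calls among the 9 in their own line ranged from 4 to 8, the lowest without Notch1-/- day 6 library 1 or 3. In the day contrasts and between the lines at day 6 same-numbered correlations were weak, at -0.032 to 0.172, so weak pairing by number is not excluded. There the replicate block gave 9412 calls in Notch1-/- and 11029 in WT between days and 7678 between the lines at day 6, with 7 of 9 loci and 12 of 18 flanking loci called; Epdr1 was added (adjusted p = 0.0434). Low counts limit what can be said of these loci in the line in which they are low, where a total of 0 allows 3 counts by counting error only; the spread between libraries is wider.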
